A study of Rattus norvegicus with 2 samples.

Results

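The heat shock chaperones described here are 10 genes whose proteins fold, refold or hold other proteins in the cytosol and in mitochondria: Hsp90aa1, Hsp90ab1, Hspa8, Hspa1a, Hspa1b, Hsph1, Dnajb1, Dnaja1, Hspd1 and Hspe1. They were taken by gene symbol from a table of 20367 transcripts, in which 13 transcripts carry these symbols, out of 15409 symbols in all. The RNA was from a rat basophilic leukaemia line, RBL-2H3, which serves as a mast cell model. The treated library is labelled as cells given fine particulate matter (PM2.5) plus IgE and the antigen DNP-HSA, which together crosslink the IgE receptor, and the other library as cells given normal saline. The labels state neither a dose unit nor a time, nor if IgE and antigen were also given with saline, so an effect of particles and an effect of IgE and antigen cannot be told apart. There was 1 library per group, so no difference below could be checked against replicates or tested, and in bulk RNA fewer cells of a kind cannot be told apart from less RNA per cell.

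In cells, HSP70 proteins bind exposed hydrophobic stretches of unfolded clients in a cycle driven by ATP, J-domain proteins (HSP40) deliver the clients and speed up ATP hydrolysis, and HSP110 proteins release the nucleotide. HSP90 acts later, on nearly folded clients such as kinases and steroid receptors, and HSP60 with its lid HSP10 encloses proteins newly imported into mitochondria. Some of these genes are strongly induced by heat and other proteotoxic stress through the transcription factor HSF1, which binds alternating GAA and TTC units called heat shock elements; others are transcribed at a high basal rate in most cells. In mast cells the receptor kinase KIT is a known client of HSP90. From this background 5 genes were taken as inducible (Hsp90aa1, Hspa1a, Hspa1b, Hsph1 and Dnajb1) and 5 as constitutive (Hsp90ab1, Hspa8, Dnaja1 and the mitochondrial pair Hspd1 and Hspe1). The split is a simplification, since genes placed as constitutive can also respond to heat.

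The promoter sequences of the chaperones are shown first, since the presence of heat shock elements is what the inducible class is known for. RefSeq promoter windows on the GRCr8 build, 250 bases before to 50 after a gene's start, were found for 8 of the 10 genes, with none for Hsp90aa1 and Hspa1b. Each was searched for paired units, GAANNTTC and TTCNNGAA, each of which reads the same on both strands, and for places where these 2 motifs overlap by 3 bases and so form 3 alternating units. Either motif stood in 6 of the 8 windows, against 15.9% of 33469 rat promoter windows of 300 bases, and overlapping motifs in 5 of the 8, against 0.798% of all windows. By class, either motif was found in 2 of 3 inducible genes with a window (Hsph1 and Dnajb1, not Hspa1a) and in 4 of 5 constitutive genes (all but Hsp90ab1). Overlapping motifs were found in 1 of 3 inducible genes and 4 of 5 constitutive genes, where Hspd1 and Hspe1 each count the same shared run. A match is a run of letters and not a site shown to bind HSF1, and a window without one says only that these letters are not in it. In the sequences below, written 5′ to 3′ on the gene's own strand, capitals mark the matched motifs. The Hspe1 window is shown whole because it reaches into the region it shares with Hspd1, and for the others the stretch holding the motifs is shown.
Hspe1 (GRCr8 chr9:64084077-64084376, plus strand): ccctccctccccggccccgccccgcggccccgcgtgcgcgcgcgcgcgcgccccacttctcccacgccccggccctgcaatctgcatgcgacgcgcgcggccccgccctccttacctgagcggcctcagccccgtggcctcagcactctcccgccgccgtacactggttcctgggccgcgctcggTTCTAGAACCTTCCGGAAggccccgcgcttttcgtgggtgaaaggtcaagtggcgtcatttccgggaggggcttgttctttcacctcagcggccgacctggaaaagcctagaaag
Hspa8 (GRCr8 chr8:50080281-50080491, plus strand): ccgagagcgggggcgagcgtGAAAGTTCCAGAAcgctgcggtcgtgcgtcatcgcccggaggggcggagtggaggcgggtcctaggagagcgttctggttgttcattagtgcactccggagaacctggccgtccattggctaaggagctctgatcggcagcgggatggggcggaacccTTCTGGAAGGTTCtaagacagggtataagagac
Hsph1 (GRCr8 chr12:10427243-10427364, plus strand): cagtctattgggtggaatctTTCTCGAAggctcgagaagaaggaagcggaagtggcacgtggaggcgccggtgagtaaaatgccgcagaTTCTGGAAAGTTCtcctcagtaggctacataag
Dnajb1 (GRCr8 chr19:41431097-41431172, minus strand): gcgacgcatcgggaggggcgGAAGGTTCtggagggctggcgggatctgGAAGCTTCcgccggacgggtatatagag
Dnaja1 (GRCr8 chr5:60638203-60638445, plus strand): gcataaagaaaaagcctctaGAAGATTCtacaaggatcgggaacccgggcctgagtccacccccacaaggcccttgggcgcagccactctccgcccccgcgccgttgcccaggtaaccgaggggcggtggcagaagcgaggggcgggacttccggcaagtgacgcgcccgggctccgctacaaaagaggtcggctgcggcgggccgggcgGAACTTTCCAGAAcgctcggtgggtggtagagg

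Hspd1 and Hspe1 lie head to head on chromosome 9 with 290 bases between their RefSeq starts, and their windows share 211 bases. The run of motifs in the Hspe1 window begins 65 bases before the Hspe1 start, and the same run, read on the other strand, begins 242 bases before the Hspd1 start. Hspa8 holds 2 such runs, beginning 213 and 55 bases before its start, and Hsph1 holds one 36 bases before its start and a single motif at 105 bases. In Dnajb1 the motifs do not overlap. These sequences are referred to again beside the members' values.

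The libraries held 3964955 reads (treated) and 7279671 reads (saline) over all listed transcripts. Values below are normalised counts, which are reads divided by the library's size factor, recovered from the deposited values, and a log2 fold compares treated with saline after 1 was added to each normalised count. Brackets hold exact 95% Clopper-Pearson intervals of the ratio without the added 1, which cover counting error only. All 8 mast cell markers examined, among them Kit, Fcer1a and Ms4a2, were present, with 172 to 5440 reads in the treated library and 175 to 11946 in the saline library. Of 10 genes looked up as markers of lymphocytes, granulocytes, epithelium, stroma, endothelium and liver, 2 were listed. Col1a1 had 15 reads in the treated library and 16 in the saline library. Ly6g6c, whose use as a granulocyte marker was not checked, had 0 and 2. The others were not listed under these symbols, which is not a measured absence.

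Of the 10 chaperones, 7 were higher in the treated library, Dnajb1 was lower, and for Hspa1a and Hspa1b the counting interval spanned 0. A gene was counted as 2-fold different where its log2 fold reached 1 in size and a library had a normalised count of 1 or more, and by this rule 2 of 10 (Hsp90aa1 and Hspa8) were higher and 0 were lower. Among all 15097 symbols that passed the same count minimum, 12.1% were at least 2-fold higher and 19.1% at least 2-fold lower. All 10 chaperones passed the count minimum, and 8 had a mean of at least 100; among the 7376 symbols with such a mean, 6.36% were at least 2-fold higher and 5.86% lower. The median log2 fold of the 10 genes was 0.71, against -0.03 over the symbols with a mean of at least 100 and -0.07 over all symbols.

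**Figure D1:**
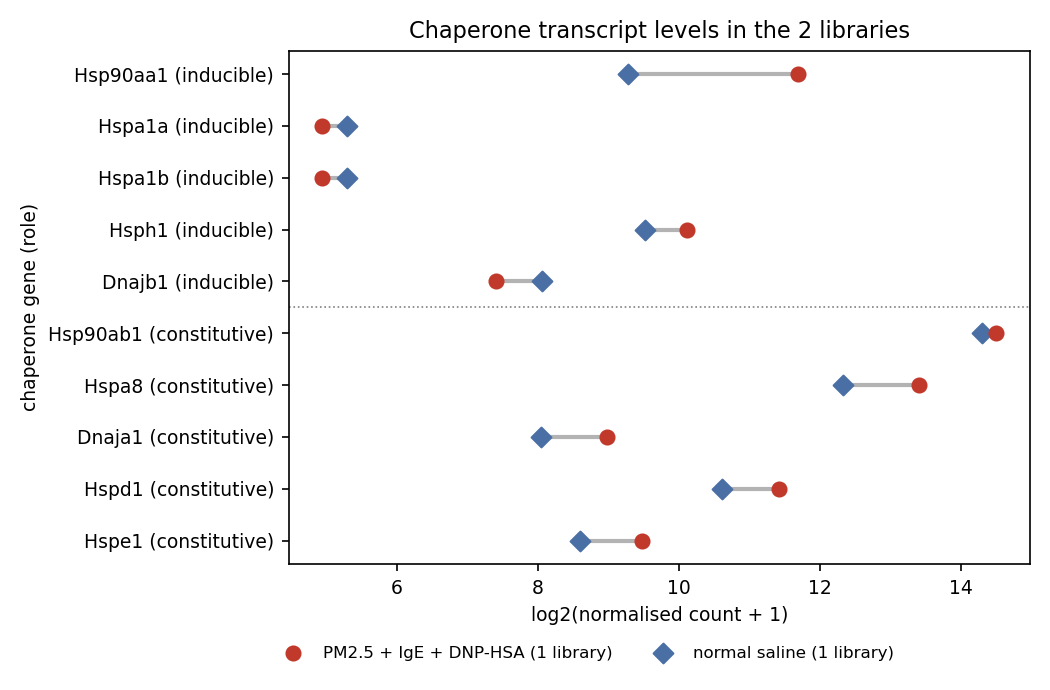
Levels of the 10 chaperones as log2(normalised count + 1) in the treated (red circles) and the saline library (blue diamonds), 1 library each, with inducible genes above the dotted line. Hsp90aa1 has the widest gap, at 3285 against 618 normalised counts, while Hspa1a, Hspa1b and Dnajb1 lie to the left in the treated library.

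Among the HSP90 genes the inducible one stood apart. Hsp90aa1 (ENSRNOG00000059714), the stress-inducible alpha form, had a normalised count of 3285 in the treated library and 618 in the saline library, from 1989 and 713 reads. The log2 fold was 2.41 (2.29 to 2.53), a 5.31-fold higher value. Only 10 of the 7376 symbols with a mean of at least 100 had a larger fold, which makes it the gene with the largest fold among the 10. Hsp90ab1 (ENSRNOG00000019834), the beta form that carries most basal HSP90, had 23087 normalised counts in the treated library and 20120 in the saline library, a log2 fold of 0.20 (0.17 to 0.23). Both of its listed transcripts were slightly higher, at 0.19 (13264 against 22119 reads) and 0.33 (714 against 1079 reads), so the small fold was shared by both. With library totals made equal, the Hsp90ab1 fold was 0.15.

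Among the HSP70 genes it was the constitutive one that was higher. Hspa8, the HSC70 protein that also uncoats clathrin vesicles, had 10817 normalised counts in the treated library and 5130 in the saline library (6549 and 5915 reads), a log2 fold of 1.08 (1.03 to 1.13). Its symbol joins 2 gene identifiers, which gave 1.09 (ENSRNOG00000034066, 5834 against 5201 reads) and 0.93 (ENSRNOG00000032585, 715 against 714 reads), and both were thus close to 2-fold. The counting of reads that match both identifiers is not stated either, so these 2 folds may not be independent. The inducible Hspa1a (ENSRNOG00000045654) had 29.7 normalised counts in the treated library and 38.2 in the saline library, from 18 and 44 reads. Its log2 fold of -0.35 had an interval of -1.24 to 0.46, so no direction was detectable at this depth. Hspa1b (ENSRNOG00000050647) had exactly the same 18 and 44 reads. The 2 genes are near-identical copies, and no source used here says how reads matching both were counted, so both values are uncertain and may hold the same reads. Of all transcripts with a symbol, only these 2 had 18 and 44 reads. Of 184 transcripts within 5 reads of Hspa1a in both libraries, 139 shared both counts with another transcript. In so narrow a range many transcripts must share counts, so this number does not bear on the match of 1 named pair. Whether the 2 copies hold the same reads was not tested.

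Hsph1 (ENSRNOG00000000902), the inducible HSP110 that acts as a nucleotide exchange factor for HSP70, had 1100 normalised counts in the treated library and 729 in the saline library. Its log2 fold was 0.59 (0.45 to 0.74, 666 against 840 reads), above that of 82.8% of symbols with a mean of at least 100. The related constitutive HSP110 gene Hspa4 had nearly the same log2 fold, 0.64 (0.52 to 0.76, 1095 against 1338 reads).

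The J-domain pair split. Dnajb1 (ENSRNOG00000021824), the inducible HSP40, had 168 normalised counts in the treated library and 264 in the saline library, a log2 fold of -0.64 (-0.98 to -0.32, 102 against 304 reads). It was the lowest of the 10 genes, with only 16.2% of symbols with a mean of at least 100 below it, yet within 2-fold. Its main transcript was at -0.57 (101 against 287 reads), and a minor transcript with 1 against 17 reads was lower still, at -2.57. Dnaja1 (ENSRNOG00000007029), a constitutive J-domain partner of HSC70, had 502 normalised counts in the treated library and 263 in the saline library. Its log2 fold was 0.93 (0.70 to 1.17, 304 against 303 reads). In both promoters printed above, motifs lie on both sides of the RefSeq start, which was not checked against a measured start of transcription.

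The mitochondrial chaperonin genes, whose promoter windows share 211 bases, had nearly the same fold. A link between the shared sequence and the folds was not tested, and Dnaja1, on chromosome 5, had a similar fold of 0.93. Hspd1 (ENSRNOG00000014525), HSP60, had 2737 normalised counts in the treated library and 1553 in the saline library, a log2 fold of 0.82 (0.72 to 0.92, 1657 against 1790 reads). Hspe1 (ENSRNOG00000051624), its HSP10 lid, had 712 normalised counts in the treated library and 384 in the saline library, a log2 fold of 0.89 (0.69 to 1.08, 431 against 443 reads). The counting intervals of the 2 folds overlapped.

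**Figure D2:**
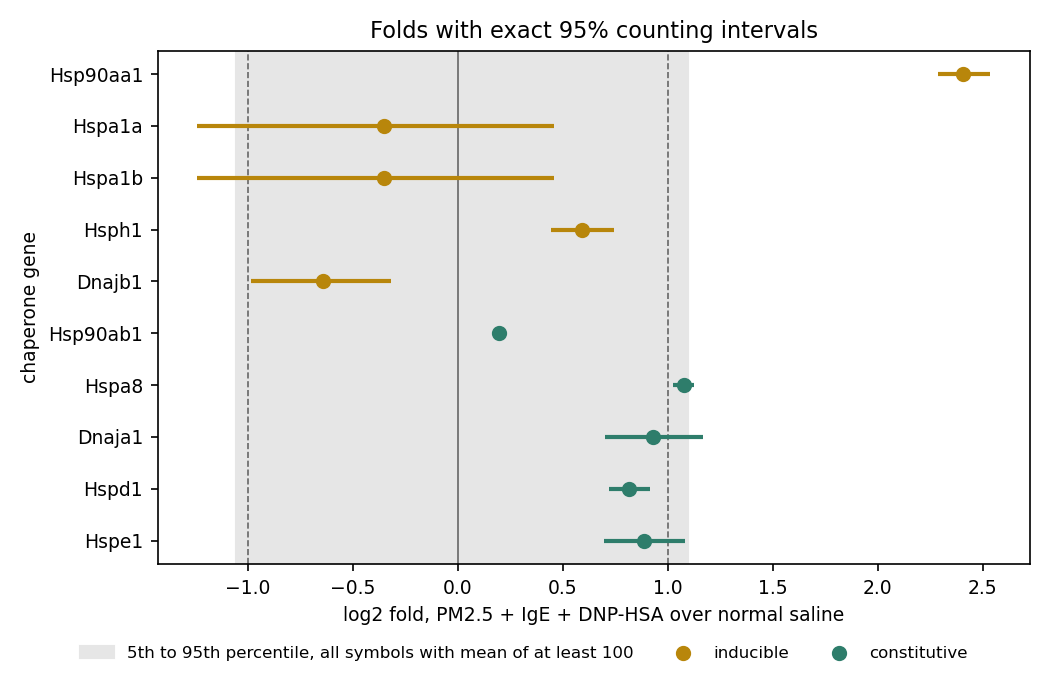
Treated-over-saline log2 folds (points) with exact 95% counting intervals (lines) for inducible and constitutive chaperones, over a grey band from the 5th to the 95th percentile of symbols with a mean of at least 100 (-1.06 to 1.09). Hsp90aa1 alone lies beyond the band, the 5 constitutive genes lie between 0.20 and 1.08, and the inducible genes spread from -0.64 to 2.41.

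Set against each other, the inducible genes were mixed and the constitutive genes went one way. The 5 constitutive genes were all higher in the treated library, with log2 folds of 0.20 to 1.08 and a median of 0.89, with every counting interval above 0. Of the 5 inducible genes, 2 had an interval above 0 (Hsp90aa1 and Hsph1), 1 below 0 (Dnajb1) and 2 spanned 0 (Hspa1a and Hspa1b), with folds of -0.64 to 2.41 and a median of -0.35. The inducible range encloses the constitutive one, so the classes overlap. The inducible minus the constitutive median was -1.24. That difference rests on Hspa1a and Hspa1b, whose reads are few and equal: it was -0.77 with both summed into 1 gene and -0.29 with both left out, the last chosen after the data were examined. With Dnaja1, which is also heat responsive in some cells, counted as inducible, it was -0.73. With Hspd1 and Hspe1 left out it was -1.28, and no run counted that pair as inducible. No test was possible for this comparison.

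**Figure D3:**
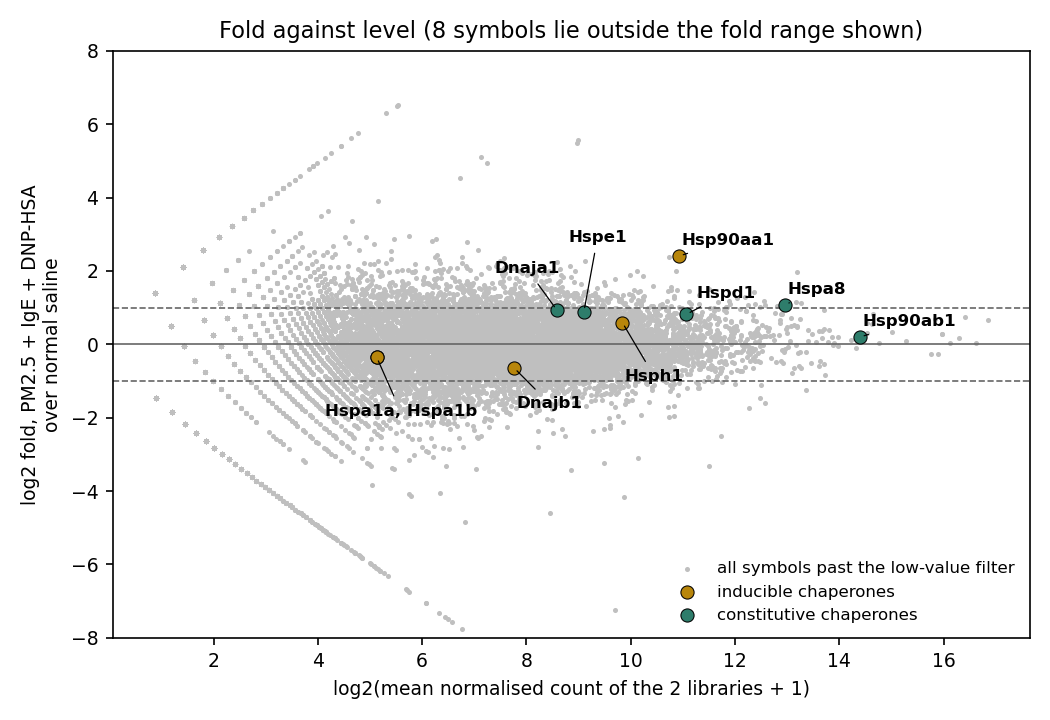
Treated-over-saline log2 fold against the mean level, for all symbols that passed the count minimum (grey) and for the 10 chaperones, with dashed lines at 2-fold; 8 symbols lie beyond the axis at 8. Hsp90aa1 sits above nearly all symbols of its level, and Hspa1a with Hspa1b has the lowest level of the 10, at a mean of 33.9.

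Shares of reads within a pair of partner genes do not depend on the size factors, and are compared here only between the libraries, since they are not corrected for gene length. Hsp90aa1 made up 12.5% (11.9 to 13.0, exact 95% interval) of the reads of the HSP90 pair in the treated library and 2.98% (2.77 to 3.21) in the saline library. Dnajb1 made up 25.1% (21.0 to 29.6) of the reads of Dnajb1 and Dnaja1 in the treated library and 50.1% (46.0 to 54.1) in the saline library. Hspa1a and Hspa1b together made up 0.547% (0.383 to 0.756) of the reads with Hspa8 in the treated library and 1.47% (1.18 to 1.80) in the saline library. These sums count 36 and 88 reads, and if the copies hold the same reads the shares are 0.274% (0.163 to 0.433) in the treated library and 0.738% (0.537 to 0.99) in the saline library. The intervals did not overlap in these 3 pairs, for HSP70 on either count, with the inducible share higher for HSP90 and lower for the other 2. A share also moves with the partner: Hspa8 was at 1.08, while the interval of Hspa1a spanned 0. The lower HSP70 share therefore does not show that the inducible genes were lower. In the J-domain pair Dnajb1 was at -0.64 and Dnaja1 at 0.93, and the share joins both. For Hsph1 with Hspa4 the share was 37.8% (35.5 to 40.1) in the treated library and 38.6% (36.5 to 40.6) in the saline library. For Hspe1 with Hspd1 it was 20.6% (18.9 to 22.4) in the treated library and 19.8% (18.2 to 21.6) in the saline library, so that the intervals of these last pairs overlapped.

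**Figure D4:**
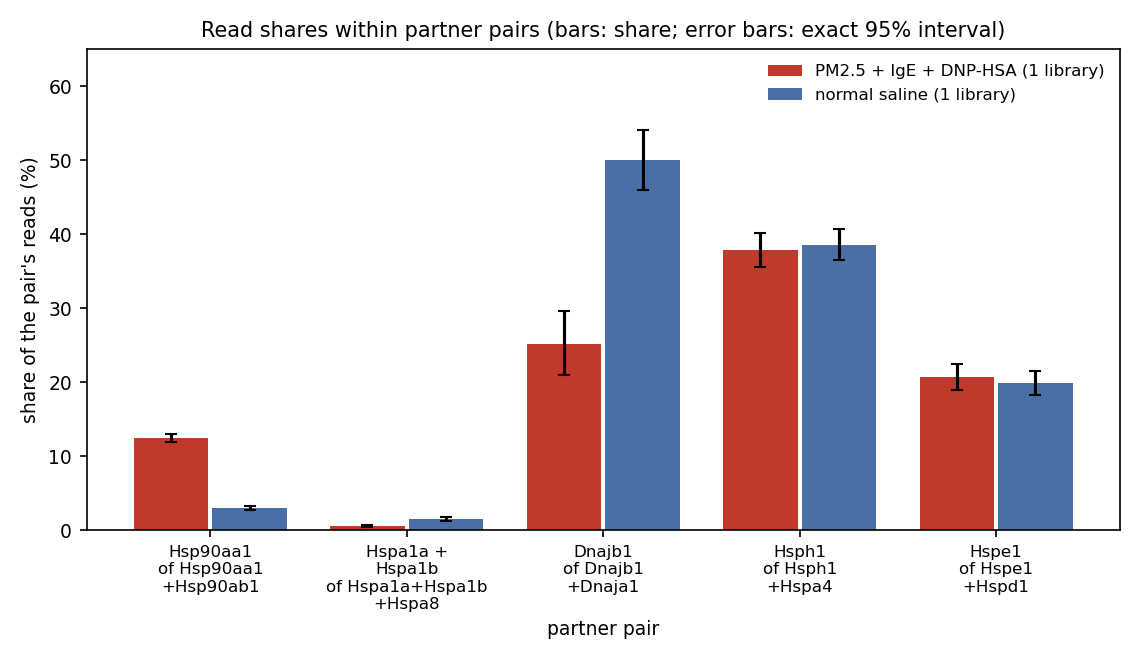
Share of the first gene in the reads of each partner pair (bars, in percent; Hspa1a and Hspa1b summed) in the treated and the saline library, with exact 95% intervals. The Hsp90aa1 share is 12.5% against 2.98%, the Dnajb1 share 25.1% against 50.1%, and the Hspe1 share near 20% in both, at 20.6% and 19.8%.

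In the authors' deposited table the adjusted p-values of the 13 chaperone transcripts lay between 0.92 and 0.932. The lowest p-value among them in the authors' deposited table was 0.0759, for the main Hspa8 transcript, and 251 of the 20367 transcripts had a lower one. For Hsp90aa1 the authors' deposited table lists a p-value of 0.256, which 3298 transcripts undercut although its fold is among the largest at that level. With 1 library per group these p-values rest on no replicates, and no chaperone was called by them here.

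Around the 10 genes, 7 lists of other chaperone network genes held 86 genes, of which 77 were measured. Of these, 12 were at least 2-fold higher with treatment and 6 at least 2-fold lower, beside 12.1% and 19.1% of all symbols, and the median log2 fold was 0.12. Of the 56 list genes with a mean of at least 100, 5 were higher and 1 lower, beside 6.36% and 5.86% of all symbols with such a mean. Among transcription factors of the heat shock response, 3 of 5 were measured and none differed 2-fold. Hsf1, the master regulator of heat shock genes, was at -0.70 (-0.96 to -0.45, 170 against 526 reads), Hsf2, its relative active in development, at 0.94 (0.52 to 1.37, 94 against 93 reads), and Hsbp1, which binds HSF1 and dampens it, at 0.36.

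Other HSP70 and HSP110 family genes had a median log2 fold of 0.62, with 7 of 8 measured genes above 0. Of these, 3 were at least 2-fold higher and 1 lower, beside 12.1% and 19.1% of all symbols. Hspa1l, Hspa2 and Hspa12b, however, had 0 reads in a library and at most 9 in the other. The median was 0.59 with those genes at a floor of 3 reads where a bound could be set. The third higher gene was Hspa13, a microsomal HSP70, at 1.13 (0.91 to 1.35, 371 against 323 reads). Mitochondrial Hspa9, mortalin, was at 0.19. Among other J-domain proteins, 5 of 21 were at least 2-fold higher and 0 lower (12.1% and 19.1% of all symbols), with a median of 0.39. With a mean of at least 100, this was 1 of 14, Dnajc2. The 5 were the ribosome-associated Dnajc2 at 1.49 (1.17 to 1.84, 192 against 129 reads), Dnajc24, needed for diphthamide on elongation factor 2, at 1.38, Dnajb4 at 1.35, and the mitochondrial import proteins Dnajc15 at 1.11 and Dnajc19 at 1.04. The members with the highest mean counts, Dnajb6, a suppressor of aggregation, and Dnajc13, of endosomes, were at 0.65 and 0.39.

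HSP90 cochaperones were evenly divided, with 10 of 20 above 0 and a median of 0.0043. Of the 20, 2 were at least 2-fold higher and 0 lower, beside 12.1% and 19.1% of all symbols. These were Chordc1 at 1.14 (0.82 to 1.48, 170 against 146 reads) and the cyclophilin Ppid at 1.11 (0.78 to 1.46, 155 against 136 reads). Ptges3, the p23 protein that stabilises closed HSP90, lay just under 2-fold at 0.99, and the immunophilin Fkbp4 was at -0.24. Among nucleotide exchange factors of HSP70, 0 of 11 differed 2-fold either way. The gene of this list with the highest mean count, Bag6, was at -0.69 (-0.76 to -0.62), and Hspa4 was given above. Exchange activity was not checked for the genes of the list, Bag6 included.

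Small heat shock proteins, which hold unfolded clients without ATP, were mostly sparse. By the 2-fold rule 1 of 7 was at least 2-fold higher and 4 lower, beside 12.1% and 19.1% of all symbols, with a median of -2.16. However, 3 of the lower genes had 0 reads in the treated library and 4 to 7 in the saline library. The median was -0.29 with these 3 at a floor of 3 reads. The fourth was Hspb7 at -2.16 (-5.60 to -0.43, 2 against 21 reads). Hspb11, which despite its name is a cilium transport subunit, was at 1.44 (0.75 to 2.23, 41 against 28 reads), and Cryab at 0.0041. Among mitochondrial chaperones and proteases, 1 of 13 was at least 2-fold higher and 1 lower (12.1% and 19.1% of all symbols), with a median of 0.12. The higher one was the inner membrane protease Yme1l1 at 1.86 (1.57 to 2.18, 271 against 141 reads) and the lower one the intermembrane space protease Htra2 at -1.02 (-1.36 to -0.70, 97 against 376 reads). The matrix protease Lonp1 was at -0.15.

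**Figure D5:**
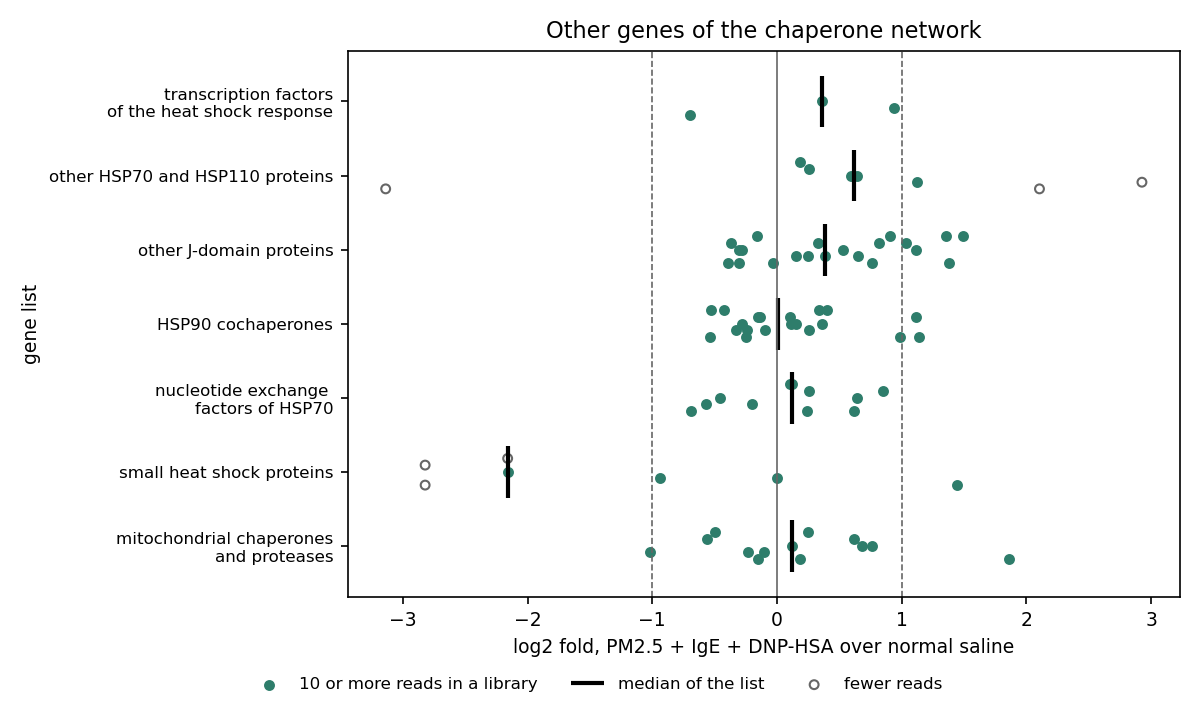
Treated-over-saline log2 folds for the measured genes of the 7 lists (points; open where both libraries had fewer than 10 reads), with the median of each list as a black bar and dashed lines at 2-fold. J-domain proteins reach past 2-fold on the high side in 5 of 21 cases, and most small heat shock proteins on the low side are open points.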

How the data were processed

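Per the labels' protocols, TruSeq libraries that keep the strand were prepared from total RNA of RBL-2H3 cells. The submitters' processing notes name DESeq 1.22.1, Cuffnorm, STAR 2.5 and FastQC, with no role stated. No build, annotation or counting method is named in the sources used here. For each transcript the authors deposited log2 values. On the linear scale, less 1, 100% of a library's values were whole multiples of what 1 read is worth (tolerance 1e-06 reads), which gives size factors of 0.605 (treated) and 1.15 (saline) and the reads behind each value. A further 2 columns hold the same values again and were left aside. P-values, raw and adjusted, are quoted from the authors' deposited table; no source used here names their test.

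Transcripts were summed by symbol (15409 symbols). The log2 fold used the value plus 1, as deposited. The members, roles, gene lists and alternatives were chosen with earlier results of these data known. Named genes were all 10 chaperones and, from the 7 lists, each gene at least 2-fold different with 10 or more reads in a library and the 2 highest means per list. Other list genes named were added after their values were seen. Of 86 list genes 77 matched by symbol and 9 did not. Intervals treat reads as independent molecules, which they may not be. The saline library was 1.84 times as deep, and precision follows the reads: intervals of the log2 fold spanned 0.0607 for Hsp90ab1 and 1.7 for Hspa1a. The interval and the 2-fold rule were run on simulated counts with counting error only and planted folds beyond the rule. That run checked the code and says nothing of spread between libraries. Matplotlib 3.10.9, SciPy 1.17.1, pandas 2.3.3 and NumPy 2.4.6 were run under Python 3.11.15.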

Additional observations from a re-analysis of the deposited data

How the results depend on the processing

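The alternatives for folds were pseudocounts of 5 and 0.1, 3 rescalings, the highest transcript alone and protein-coding transcripts only. Under all 7 of them the 10 chaperones kept the sign of their fold, and Hsp90aa1 ranged from 2.35 to 2.44, Hspa8 from 1.02 to 1.11 and Dnajb1 from -0.70 to -0.57. The 3 rescalings moved all log2 folds by -0.053 to 0.032. In every alternative run, the filters included, 2 chaperones were at least 2-fold higher and 0 lower, although only 8 stayed with a mean of at least 100. The inducible minus constitutive median of -1.24 lay between -1.25 and -1.19 under those 7 and at -1.28 for cytosolic genes alone. It moved to -0.73 with Dnaja1 counted as inducible, -0.77 with Hspa1a and Hspa1b summed and -0.29 with both left out, since each changes which gene is the median. Among the 77 list genes, 12 higher and 6 lower became 10 and 2 with a mean of at least 10, and 5 and 1 with a mean of at least 100 (added after the data were examined), where fewer genes were tested. The share of Hspa1a and Hspa1b with Hspa8 became 0.274% (treated) and 0.738% (saline) with the reads of 1 copy, added after the data were examined. Over all symbols, 1826 higher and 2876 lower became 1023 and 1650 with a pseudocount of 5, and 964 and 1209 with a mean of at least 10. No paired analysis was possible because each group has 1 library. Depth limits Hspa1a, Hspa1b and most small heat shock proteins, which rest on few reads.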

Other observations

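Several genes around the chaperones had listed transcripts that did not share a direction. Of 12 list genes with more than 1 transcript of at least 10 reads, 7 had transcripts both above and below 0. Among these, both Dnajc5 transcripts had a counting interval that spanned 0, so no direction was detectable for either. Dnajb2 and Ruvbl1 each had 1 such transcript, and the other Dnajb2 transcript had 0 reads in the treated library and 72 in the saline library. The same share over all symbols was not computed, so nothing here is particular to chaperone network genes. The genes named below were chosen after their values were seen. For Grpel1, the nucleotide exchange factor of mitochondrial HSP70, one transcript (ENSRNOT00000082180) was at 4.06 (3.34 to 5.12, 123 against 13 reads) and the other (ENSRNOT00000008932) at -0.81 (-1.11 to -0.52, 128 against 427 reads), while the gene as a whole was at 0.12. For Dnaja3, the mitochondrial HSP40, the values were 1.65 (1.23 to 2.11, 120 against 72 reads) and -0.59 (-0.95 to -0.25, 94 against 270 reads). For Cdc37, the cochaperone that brings kinases to HSP90, a minor transcript was at 2.57 (1.83 to 3.56, 53 against 16 reads) and the main one at -0.35 (880 against 2138 reads). Only Cdc37l1 among the 12 had transcripts at least 2-fold higher and lower, at 1.41 (47 against 33 reads) and -1.80 (14 against 96 reads). No source used here says how reads of overlapping transcripts were divided, and the part of that in these values was not tested.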
